A study of Mus musculus with 48 samples.

Results

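Tubulin genes are 8 of the 21025 gene models measured in these B-cell progenitors. They are the beta-tubulin genes Tubb3, Tubb5 and Tubb6, the alpha-tubulin genes Tuba1a, Tuba1b, Tuba1c and Tuba4a, and the gamma-tubulin gene Tubg1. The members were picked by name, with earlier results of these data known, and Tubb3 gave the set its name. The files list them in capitals as TUBA1A, TUBA1B, TUBA1C, TUBA4A, TUBB3, TUBB5, TUBB6 and TUBG1. Each name matched 1 gene model, so the provision for taking the model of highest mean decided nothing. Tubb3 values are therefore a description with no test, and the other 7 genes were tested.

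The study asked, per its title, how the zinc-finger transcription factor Ikaros, encoded by Ikzf1, acts at different stages of early B-cell development. RNA was sequenced from 30 libraries of C57BL/6 mouse cells. In 3 settings of pro-B cells, 2 deleted libraries stood against 2 control libraries. These settings were total pro-B cells, pro-B cells labelled c-Kit high, and pro-B cells that also carried Rag2(-/-). Deleted cells were Ikzf1(fl/-) Cd79a(Cre/+), and control cells were Ikzf1(fl/+) Cd79a(Cre/+). All 12 of these libraries thus carried Cre in the B-lineage gene Cd79a and 1 floxed Ikzf1 allele. The other Ikzf1 allele was + in control cells and - in deleted cells, so the controls also carried Cre together with a floxed allele. Wild-type pre-B cells gave 2 libraries. Pre-pro-B cells that were Ebf1(-/-), so lacked the transcription factor EBF1 in every group, gave 4 libraries of each of 4 constructs. These were Ik4056 and Ik2709, which the labels call Ikaros knock-down, and the controls Ren713 and empty vector. By consecutive library numbers in their titles they formed 4 runs, each with 1 library of each construct. The labels give no age, sex, sort gate or culture condition. Whether libraries of a group are from separate mice or cultures is not stated, and the p-values then cover the variation among these libraries, which may be technical. The pre-B libraries had no deleted counterpart. By the library numbers in their titles, the control libraries of total, c-Kit-high and Rag2-null pro-B cells fell in separate ranges. Differences between these settings therefore cannot be told apart from differences in when or how the libraries were made.

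Values are the deposited RPKM, reads scaled to the length of the gene model and to the mapped reads of the library, a scale on which genes of different length can be compared. Read numbers recovered from the spacing of low values ran from 8700000 to 36400000 in all libraries except control c-Kit-high replicate 2, which had 2300000. Ikzf1 itself read 45.3 and 48.9 RPKM in deleted pro-B cells, against 59.2 and 56.4 RPKM in control pro-B cells. It read 64.5 and 86.0 RPKM in deleted c-Kit-high cells, against 101.3 and 123.8 RPKM in their controls, and 39.9 and 36.7 RPKM in deleted Rag2-null cells, against 62.3 and 56.2 RPKM in their controls. In pre-pro-B cells it ranged from 23.7 to 60.6 RPKM with the Ikzf1 knock-down constructs, against 106.1 to 145.3 RPKM with the control constructs. A value per gene does not show which exons were read, so it does not tell a deleted allele from an intact one. B-lineage genes were present in all pro-B and pre-B libraries, with 10 markers summing to 2833 RPKM or more, and stood at 48.0 to 136.9 RPKM in the Ebf1(-/-) cells. With each construct the highest of the 10 in those cells was Ebf1 itself, averaging 20.5 to 28.8 RPKM, so part of that sum is RNA read from the altered gene. Among pro-B and pre-B libraries the sum was lowest in deleted total pro-B cells, at 2833 and 3108 RPKM, against 3447 and 3473 RPKM in their controls. The pre-B libraries stood apart in genes of other blood lineages. In them 9 neutrophil genes summed to 7147 and 7353 RPKM, against 103.4 and 627.4 RPKM in control c-Kit-high cells and at most 0.780 RPKM in total and Rag2-null pro-B cells. Monocyte genes summed to 557.5 and 736.1 RPKM in pre-B cells, against at most 79.3 RPKM in any pro-B library, and 6 erythroid genes to 119.2 and 153.8 RPKM, against at most 33.3 RPKM.

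Microtubules are hollow polymers of alpha- and beta-tubulin dimers that carry cargo, shape the cell and build the mitotic spindle. Mammals make each subunit from several genes, called isotypes, whose products differ mostly in the C-terminal tail that motors and modifying enzymes read. Tubb3, or class III beta-tubulin, is best known as a marker of neurons, Tubb5 is the general isotype of dividing cells, and Tubb6 is a widely expressed minor isotype. Tuba1a is prominent in the developing brain, Tuba1b and Tuba1c serve dividing cells, and Tuba4a is the alpha isotype whose gene encodes no C-terminal tyrosine. Gamma-tubulin, the product of Tubg1, sits in ring complexes that start new microtubules.

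Tubb3 lies on chromosome 8, Tubb5 on chromosome 17, Tuba4a on chromosome 1 and Tubg1 on chromosome 11. Tuba1a, Tuba1b and Tuba1c stand next to each other on chromosome 15. Their coding sequences are nearly identical, so how reads were divided among them is uncertain. Tuba4a overlaps the kinase gene Stk16 in the annotation, and whether counting used the strand is not known from the labels. RefSeq windows of 250 bases before to 50 bases after the gene start, on build GRCm38.p6, were found for 6 members, with none used for Tubb6 and Tubg1. The windows were searched on both strands for GGGAA and for TGGGAA, which contains it, the core letters reported for Ikaros-family zinc fingers. GGGAA was found once in the windows of Tuba1a, Tuba1b, Tuba1c and Tubb5, and not in those of Tubb3 and Tuba4a. TGGGAA was in none of the 6. Of 32851 mouse windows of the same length, 62.7% hold GGGAA and 25.6% hold TGGGAA. The windows below belong to Tubb3 and to the tested members called lower in deleted pro-B cells, Tuba4a and Tuba1a, and capitals mark GGGAA.
Tubb3, chr8:123411303-123411602, plus strand: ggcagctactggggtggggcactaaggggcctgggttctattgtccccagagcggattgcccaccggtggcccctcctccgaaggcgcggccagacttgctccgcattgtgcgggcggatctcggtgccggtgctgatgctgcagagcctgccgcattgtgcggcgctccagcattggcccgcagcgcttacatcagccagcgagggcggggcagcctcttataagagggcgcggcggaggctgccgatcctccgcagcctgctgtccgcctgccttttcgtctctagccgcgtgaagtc
Tuba4a, chr1:75219245-75219544, minus strand: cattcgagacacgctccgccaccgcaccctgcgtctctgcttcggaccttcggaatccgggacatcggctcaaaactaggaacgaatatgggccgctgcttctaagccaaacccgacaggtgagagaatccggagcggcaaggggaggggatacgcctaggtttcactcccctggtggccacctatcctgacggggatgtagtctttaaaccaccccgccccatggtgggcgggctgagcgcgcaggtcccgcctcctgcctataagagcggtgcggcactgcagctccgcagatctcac
Tuba1a, chr15:98953452-98953751, minus strand: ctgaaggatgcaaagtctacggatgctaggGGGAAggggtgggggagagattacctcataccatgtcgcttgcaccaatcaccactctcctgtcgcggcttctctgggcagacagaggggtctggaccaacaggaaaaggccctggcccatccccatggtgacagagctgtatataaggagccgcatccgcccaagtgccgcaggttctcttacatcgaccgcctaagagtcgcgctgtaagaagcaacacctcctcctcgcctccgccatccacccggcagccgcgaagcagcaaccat
A match is a description of letters and not a binding site, and the absence of one says only that these letters are not in this window.

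Tubb3 was nearly absent from deleted pro-B cells and abundant in their controls. It read 1.97 and 0.26 RPKM in deleted pro-B cells, against 178.1 and 172.5 RPKM in control pro-B cells. The means were 1.11 and 175.3 RPKM, a ratio of 0.00634. On the scale of log2(RPKM + 1), used for all differences here, this was -6.51 ± 0.37 (SE from the fit). Both deleted libraries lay far below both controls. In bulk RNA, fewer cells that use a gene and less RNA per cell cannot be told apart.

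The Rag2-null pro-B cells, which cannot rearrange their immunoglobulin genes, showed the same direction with a smaller difference. Tubb3 read 36.5 and 22.8 RPKM in deleted Rag2-null cells, against 275.0 and 246.4 RPKM in Rag2-null controls. The difference was -3.13 ± 0.37 and the ratio of means 0.114. The groups did not overlap, but deleted Rag2-null cells kept more Tubb3 than deleted total pro-B cells. The deletion effect was 3.38 ± 0.52 log2 units less negative in Rag2-null than in total pro-B cells.

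In c-Kit-high cells Tubb3 stayed below 1 RPKM in all 4 libraries. It read 0.80 and 0.05 RPKM in deleted c-Kit-high cells, against 0.52 and 0.25 RPKM in control c-Kit-high cells, and the difference was -0.00 ± 0.37. The pre-B libraries held 0.08 and 0.20 RPKM. Among controls, Tubb3 differed by -7.00 ± 0.37 between c-Kit-high and total pro-B cells and by 0.57 ± 0.37 between Rag2-null and Rag2-intact cells. Where a group was near 0, the difference depends on the pseudocount: in total pro-B cells the deletion gave -7.67 to -4.90 over the alternatives tried.

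In Ebf1(-/-) pre-pro-B cells Tubb3 was present at intermediate levels. With Ik4056 it read 9.33, 5.17, 12.9 and 2.56 RPKM in runs 1 to 4, and with Ik2709 10.2, 3.34, 12.6 and 3.53 RPKM. The Ren713 libraries read 29.9, 19.3, 37.9 and 11.2 RPKM, and the empty-vector libraries 54.3, 34.0, 61.9 and 4.93 RPKM in the same order. Over all runs the knock-down and control values overlapped, because the run 4 controls lay within the range of the knock-down libraries. Within each run both knock-down libraries lay below both control libraries. The differences by run were -1.94, -2.37, -1.85 and -1.08, and the pooled difference was -1.81 ± 0.48 (means 7.45 and 31.7 RPKM, n = 8 each). Ik4056 minus Ik2709 was 0.02 ± 0.67.

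Ordered by group mean, Tubb3 stood at 0.137 RPKM in pre-B cells, 0.427 and 0.386 RPKM in deleted and control c-Kit-high cells, and 1.11 RPKM in deleted pro-B cells. It then stood at 7.40 RPKM with Ik2709, 7.49 RPKM with Ik4056, 24.6 RPKM with Ren713, 29.6 RPKM in deleted Rag2-null cells and 38.8 RPKM with the empty vector. Control pro-B cells, at 175.3 RPKM, and Rag2-null controls, at 260.7 RPKM, stood above all other groups. In this order, neighbouring ranges did not overlap between pre-B and control c-Kit-high cells, between deleted pro-B and Ik2709, between empty vector and control pro-B, and between control pro-B and Rag2-null controls. Tubb3 reached 1 RPKM in 23 of 30 libraries.

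**Figure D1:**
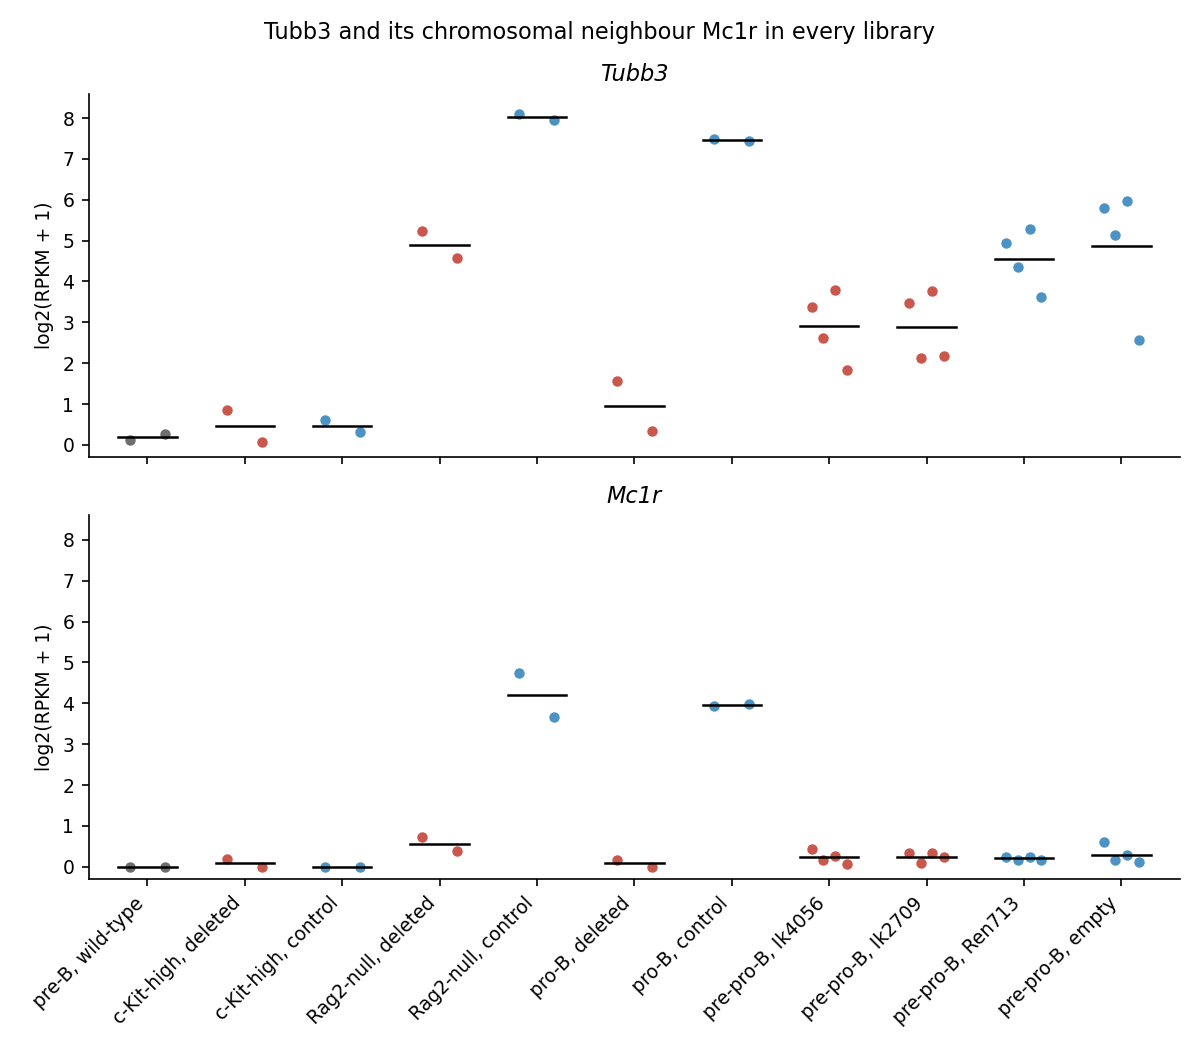
Level of Tubb3 (upper panel) and of its chromosomal neighbour Mc1r (lower panel) as log2(RPKM + 1) in each of the 30 libraries, by group. Points are libraries and bars are means, with red for deleted cells and Ikzf1 knock-down constructs, blue for controls and grey for pre-B cells. Both genes are high in control pro-B and Rag2-null control cells and near 0 in pre-B and c-Kit-high cells, while Mc1r, unlike Tubb3, is below 1 RPKM in every pre-pro-B library.

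Other genes of neurons were low in all groups. The 14 neuron markers summed to 1.49 and 2.17 RPKM in deleted pro-B cells, against 1.39 and 1.63 RPKM in control pro-B cells, and to 0.614 to 0.920 RPKM in Rag2-null controls, where Tubb3 was highest. In both deleted pro-B libraries 9 of the 14 were at 0, and in both control libraries 6. Only 2 of them reached the level needed for the test in pro-B and pre-B cells, and none did in the knock-down fit. Their sum stayed at or below 4.38 RPKM in every library.

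Mc1r, which encodes the melanocortin receptor of pigment cells, is the next annotated gene upstream of Tubb3 and was looked at after its values had been seen. It read 0.13 and 0.00 RPKM in deleted pro-B cells, against 14.3 and 14.8 RPKM in their controls, and 0.65 and 0.30 RPKM in deleted Rag2-null cells, against 25.8 and 11.8 RPKM in theirs. The differences were -3.87 ± 0.27 and -3.66 ± 0.27. Mc1r was listed at 0 in both control c-Kit-high and both pre-B libraries and lay between 0.05 and 0.52 RPKM in pre-pro-B cells, so the genes parted there. Whether some reads of one gene continue into the other was not tested.

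Among the genes whose levels followed Tubb3 most closely over the 14 pro-B and pre-B libraries were the glycine-cleavage gene Gldc (Pearson r = 0.967), the glucose transporter gene Slc2a1 (0.964), the protocadherin gene Pcdh9 (0.963) and the pyruvate kinase gene Pkm (0.96). Mc1r had r = 0.921 and rank 24. Over the 16 knock-down libraries they were the receptor gene Gpr20 and the protease-inhibitor gene Spint2 (0.946 each), the LIM-domain gene Pdlim1 (0.941), the milk-fat-globule gene Mfge8 (0.937) and the scaffold gene Slc9a3r1 (0.935). These correlations describe libraries that fall into groups and share depth and run, and they carry no p.

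**Figure D2:**
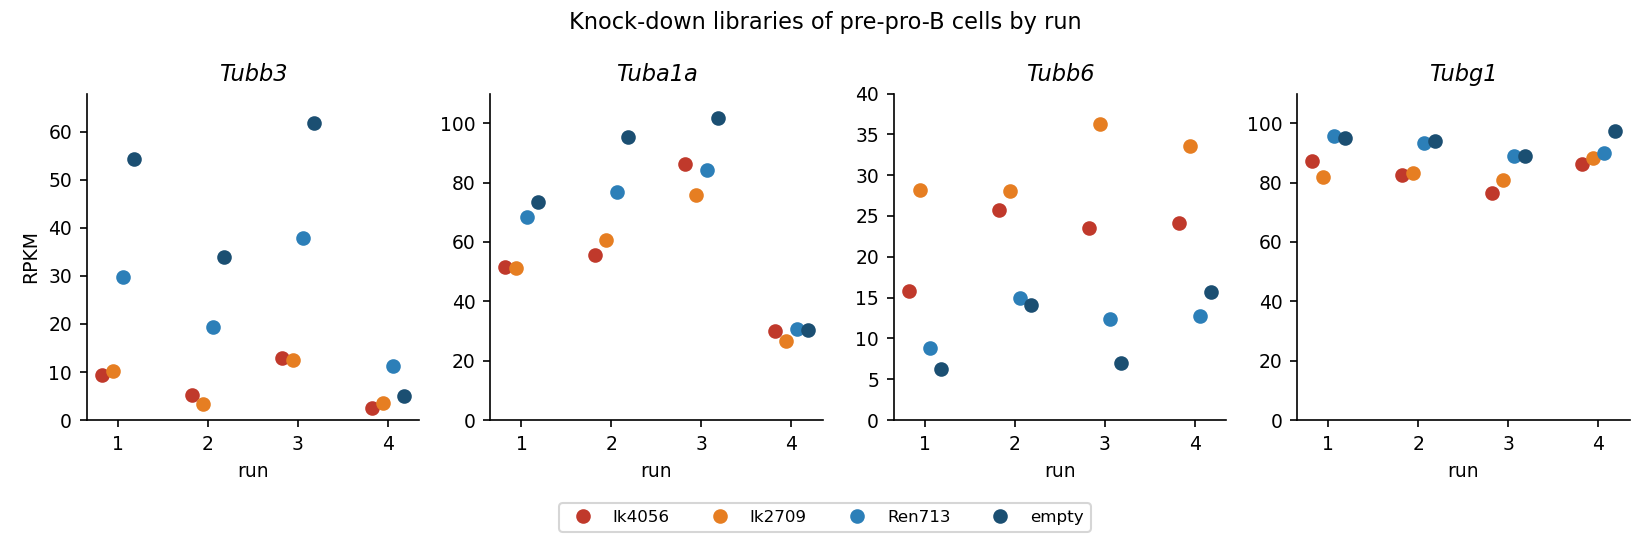
RPKM of Tubb3, Tuba1a, Tubb6 and Tubg1 in the 16 pre-pro-B libraries by run, with 1 point for each construct. Run 4 is lowest for Tuba1a with every construct and for Tubb3 with every construct but Ik2709, both knock-down constructs lie below both controls for Tubb3 in each run, and both lie above both controls for Tubb6 in each run.

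Tubb5 carried most beta-tubulin RNA in every group and passed the test in none of the 3 deletions and not in the knock-down. It read 2161 and 2063 RPKM in deleted pro-B cells, against 1836 and 1770 RPKM in their controls, and the difference of 0.23 ± 0.10 missed the threshold (adjusted p = 0.138, limma). Of the 13 alternative fits it was called in 1, that of the compared libraries alone (0.23, adjusted p = 0.0218 by limma). All tests of single genes here are limma's moderated test on log2(RPKM + 1), two-sided, with Benjamini-Hochberg adjustment over all genes of the fit and a threshold of 0.05. In Rag2-null cells it read 2455 and 2519 RPKM with the deletion, against 2659 and 2746 RPKM without it (-0.12 ± 0.10, adjusted p = 0.472 by limma). In pre-pro-B cells it averaged 1814 RPKM with the Ikzf1 knock-down constructs and 1945 RPKM with control constructs (-0.10 ± 0.09, adjusted p = 0.524 by limma).

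As a share of the summed RPKM of all beta-tubulin genes, Tubb3 made up 0.0470% ± 0.0505 in deleted pro-B cells, against 7.85% ± 0.0374 in control pro-B cells (SD, n = 2 each). Tubb5 made up 90.8% ± 0.113 of the sum in deleted cells and 80.8% ± 0.115 in control cells, and Tubb4b, another general isotype, 8.84% and 10.4%. The sum itself was 2326 ± 73.6 RPKM in deleted pro-B cells and 2233 ± 60.8 RPKM in control pro-B cells. In Rag2-null cells the Tubb3 share was 1.05% ± 0.359 with the deletion and 7.70% ± 0.760 without it, and the sum was 2825 ± 42.0 RPKM with the deletion and 3391 ± 71.99 RPKM without it. In pre-pro-B cells Tubb3 stayed a minor isotype, at 0.348% with Ik4056 and 0.341% with Ik2709, against 1.04% with Ren713 and 1.63% with the empty vector.

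**Figure D3:**
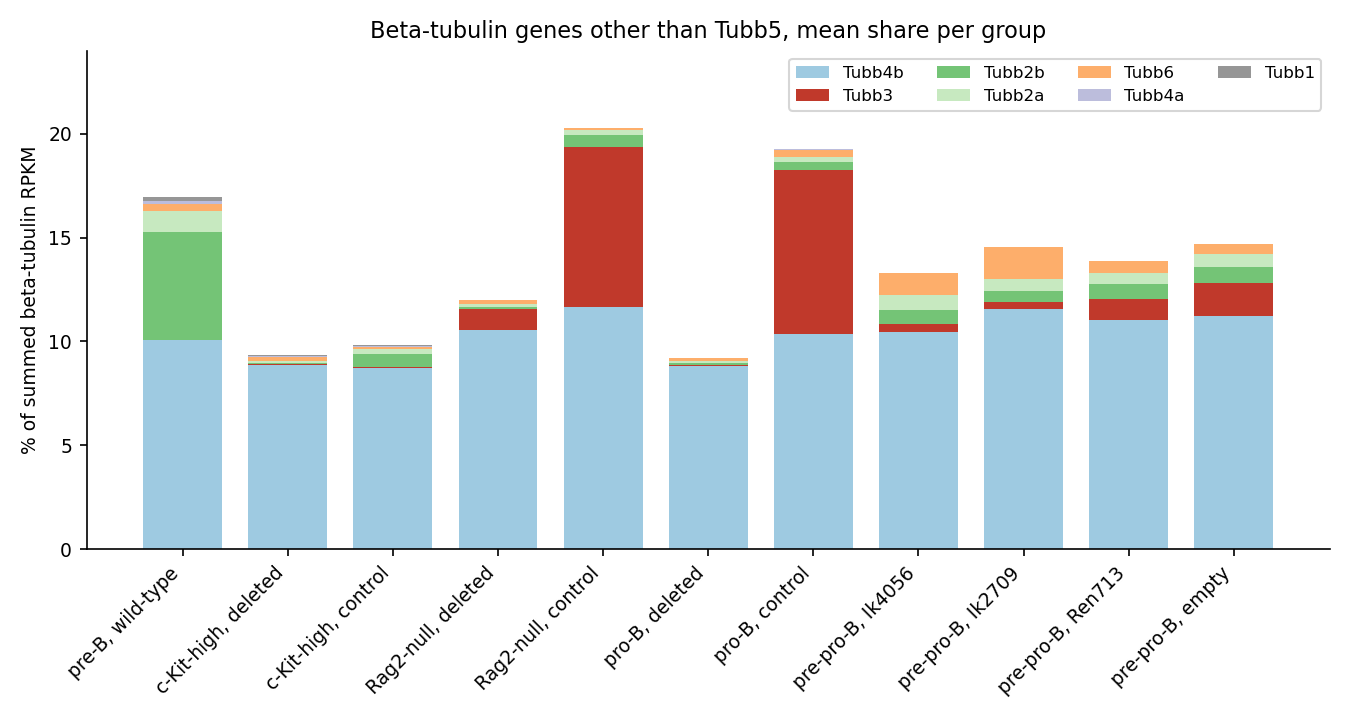
Mean share of each beta-tubulin gene other than Tubb5 in the summed beta-tubulin RPKM of each group, in percent. The red Tubb3 part is 0.0470% in deleted and 7.85% in control pro-B cells, and 1.05% in deleted and 7.70% in control Rag2-null cells, and Tubb2b is widest in pre-B cells at 5.21%.

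Tubb6 was a low-level gene in pro-B cells and rose with the Ikzf1 knock-down constructs in pre-pro-B cells. With Ik4056 it ranged from 15.8 to 25.7 RPKM and with Ik2709 from 28.1 to 36.2 RPKM. The 8 control libraries ranged from 6.22 to 15.7 RPKM. Every knock-down library lay above every control library. The means were 26.9 and 11.5 RPKM, the difference 1.19 ± 0.18, and the adjusted p = 0.000139 (limma). By run the differences were 1.39, 0.84, 1.54 and 0.97. Its value stayed between 0.96 and 1.29 in all 26 alternative fits and passed the test in each. Monocyte and neutrophil genes were also higher with the knock-down constructs: the 7 monocyte genes summed to 90.1 to 166.9 RPKM, against 11.4 to 18.2 RPKM with the control constructs. The 9 neutrophil genes summed to 113.8 to 428.7 RPKM with the knock-down constructs, against 21.7 to 90.3 RPKM with the control constructs. Most of that sum was Mpo, which averaged 213.6 RPKM with Ik4056 and 296.4 RPKM with Ik2709. Only 3 of the 9 neutrophil genes reached the level needed for the test, and all 3 were called higher. Of 6 tested monocyte genes 5 were called higher and 1 lower, where 19.4% of all genes were called. The part of these markers in the Tubb6 difference was not tested.

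In pro-B cells Tubb6 passed the test in none of the 3 deletions, with a negative difference in total pro-B cells and positive ones in the other settings. It read 5.04 and 2.59 RPKM in deleted pro-B cells, against 7.22 and 7.66 RPKM in their controls (-0.86 ± 0.33, adjusted p = 0.0821 by limma). Without deleted pro-B replicate 1 the difference was -1.23 with an adjusted p = 0.0435 (limma), and the call was also made with a pseudocount of 5, with quantile normalization and with the compared libraries alone. In c-Kit-high cells it read 2.99 and 2.78 RPKM with the deletion, against 2.25 and 0.49 RPKM without it (0.82 ± 0.33, adjusted p = 0.114 by limma). The second of those controls is the shallow library. Without control c-Kit-high replicate 1 the difference was 1.38 with an adjusted p = 0.00833 (limma), on a single control library. In Rag2-null cells it read 4.73 and 6.27 RPKM with the deletion, against 4.01 and 4.71 RPKM without it (0.27 ± 0.33, adjusted p = 0.635 by limma), and the difference was -0.02 with quantile normalization.

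Among the alpha-tubulin genes, Tuba4a and Tuba1a fell with Ikzf1 deletion in total pro-B cells. Tuba4a read 113.4 and 102.3 RPKM in deleted pro-B cells, against 211.6 and 218.1 RPKM in their controls (-0.99 ± 0.17, adjusted p = 0.000883 by limma). It passed the test in all 13 alternative fits. Tuba1a read 25.0 and 26.0 RPKM in deleted pro-B cells, against 44.2 and 42.7 RPKM in their controls (-0.74 ± 0.15, adjusted p = 0.00265 by limma). Its call held except in the fit of all 30 libraries (adjusted p = 0.37 by limma). The groups did not overlap for either gene, but neither did they for Tuba1c, Tubb5, Tubb6 and Tubg1, which were not called. The share of all genes without overlap is not given here.

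Tuba1b and Tuba1c did not pass the test there. Tuba1b read 186.6 and 194.9 RPKM in deleted pro-B cells, against 192.0 and 179.9 RPKM in their controls, and Tuba1c 38.3 and 32.6 RPKM in deleted cells, against 32.4 and 30.1 RPKM in controls. The summed alpha-tubulin RPKM was 359.8 ± 5.09 in deleted and 475.6 ± 6.69 in control pro-B cells (SD, n = 2 each). Tuba4a was the leading alpha isotype of control pro-B cells, with 45.2% of that sum, and Tuba1b that of deleted cells, with 53.0%, while Tuba4a held 29.97% in deleted and Tuba1b 39.1% in control cells. In total, 2 of the 7 tested members were called in deleted pro-B cells, both lower, where 23.4% of all 11937 genes tested were called and 9.89% were called lower. Endothelial and stromal markers, 7 genes, summed to 56.9 and 62.9 RPKM in deleted pro-B cells, against 83.6 and 117.0 RPKM in their controls. Of these, 3 were called lower and 2 higher, and 1 to 3 lower with a library left out. B-lineage markers had 5 of 10 called lower and 2 higher, or 3 to 4 lower and 1 higher with a library left out. T-cell and NK-cell genes, led by Nkg7, summed to 18.8 and 20.3 RPKM in deleted cells, against 2.01 and 2.46 RPKM in controls. Of 3 tested, 1 was called higher. The part of any of these markers in the tubulin differences was not tested.

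In Rag2-null cells Tuba1a, Tuba1b and Tuba1c fell. Tuba1a fell in this setting too, reading 30.1 and 29.6 RPKM in deleted cells, against 45.3 and 61.8 RPKM in Rag2-null controls (-0.81 ± 0.15, adjusted p = 0.00185 by limma), except in the fit of all 30 libraries (adjusted p = 0.35 by limma). Tuba1b read 115.9 and 143.2 RPKM in deleted cells, against 178.5 and 181.9 RPKM in controls (-0.48 ± 0.13, adjusted p = 0.0165 by limma). Its call was lost without Rag2-null control replicate 2 (adjusted p = 0.0663 by limma) and without deleted Rag2-null replicate 1 (0.164), and also with quantile normalization (0.121), in the fit of all 30 libraries (0.214) and with the compared libraries alone (0.0827). Tuba1c read 25.4 and 25.7 RPKM in deleted cells, against 38.1 and 40.3 RPKM in controls (-0.60 ± 0.18, adjusted p = 0.0313 by limma), and its call was lost without any 1 of the 4 libraries (adjusted p = 0.0636 to 0.126 by limma), with quantile normalization and with no filter on low values. Tuba4a read 186.7 and 180.1 RPKM in deleted cells, against 175.8 and 268.4 RPKM in controls, which enclosed both deleted values. Its adjusted p was 0.346 (limma), and without Rag2-null control replicate 1 the difference was -0.55 with an adjusted p = 0.0146 (limma). Tubg1 read 66.5 and 87.7 RPKM in deleted cells, against 58.2 and 63.8 RPKM in controls, with an adjusted p of 0.14, and 0.0496 without deleted Rag2-null replicate 1 (limma).

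In Rag2-null cells, then, 3 of the 7 tested members were called, all lower, where 22.3% of all genes tested were called and 6.84% were called lower, or 11.7% lower with median-ratio scaling. The deletion effects in Rag2-null and total pro-B cells were also set against each other. No member passed that test, where 13.1% of genes did, and 6 of 7 members had an unadjusted p under 0.05, as did 25.1% of genes, by the same limma fit. For Tuba4a the deletion effect was 0.75 ± 0.24 less negative in Rag2-null cells (adjusted p = 0.0565 by limma). With a library left out 1 member at most was called, Tuba4a without Rag2-null control replicate 2, Tubg1 without deleted Rag2-null replicate 1 and Tuba1b without deleted Rag2-null replicate 2. Endothelial and stromal markers also differed in this setting, with 7 genes summing to 130.6 and 193.4 RPKM in deleted Rag2-null cells, against 23.7 and 25.7 RPKM in their controls. Monocyte genes summed to 41.2 and 51.4 RPKM in deleted Rag2-null cells, against 11.7 and 28.3 RPKM in their controls, with 4 of 6 tested called higher. Megakaryocyte and platelet genes summed to 7.80 and 16.9 RPKM in deleted Rag2-null cells, against at most 0.415 RPKM in the controls. Most of that sum was Pf4, with a mean of 12.1 RPKM in deleted Rag2-null cells, and 1 of 5 tested was called higher. The part of these markers in the tubulin differences was not tested.

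**Figure D4:**
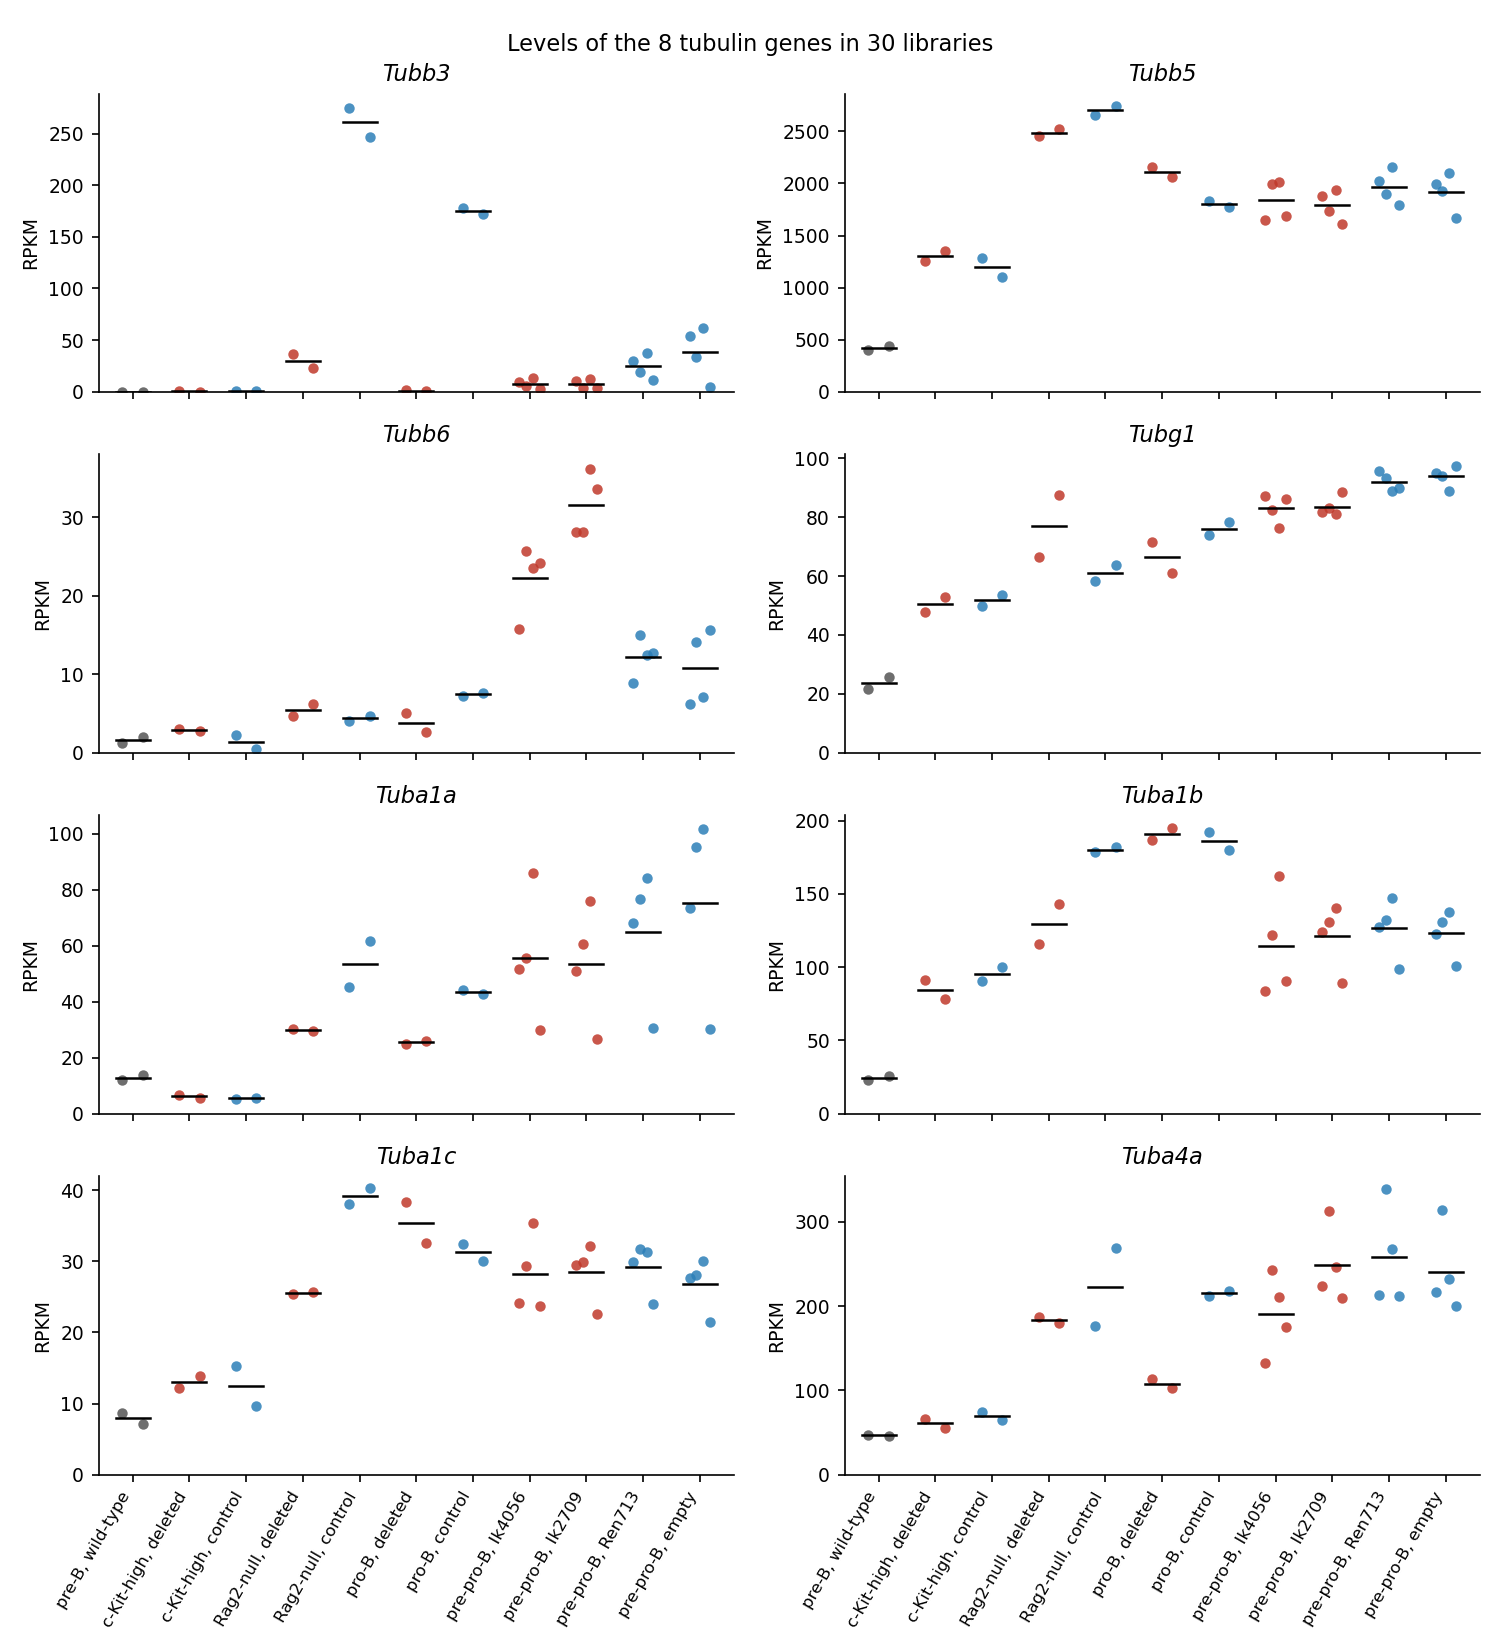
RPKM of the 8 tubulin genes in each of the 30 libraries, 1 panel per gene with its own linear axis from 0. Points are libraries, bars are group means, and colours are red for deleted cells and Ikzf1 knock-down constructs, blue for controls and grey for pre-B cells. Every member has its lowest library among pre-B and c-Kit-high cells, and Tubb6 is highest with the knock-down constructs.

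In c-Kit-high cells no member passed the test of the deletion, where 17.2% of genes did. By limma 1 member, Tubb6, had an unadjusted p under 0.05, as did 3585 of 11937 genes. Tuba1a, at 6.56 and 5.78 RPKM in deleted cells, against 5.22 and 5.69 RPKM in controls, was far below its level in total pro-B cells. The deletion effect on Tuba1a was 0.89 ± 0.21 higher in c-Kit-high than in total pro-B cells (adjusted p = 0.0231 by limma), the 1 member of 7 to pass, against 6.70% of genes. That call was lost in 5 of 8 fits with a library left out, namely without deleted c-Kit-high replicate 1 or either library of deleted or control pro-B cells (adjusted p = 0.0639 to 0.0929 by limma), and in the fit of all 30 libraries (0.615).

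In pre-pro-B cells Tubg1 fell slightly with the knock-down constructs. It ranged from 76.5 to 88.4 RPKM with them, against 88.8 to 97.5 RPKM with the control constructs (means 83.3 and 92.9 RPKM, -0.16 ± 0.05, adjusted p = 0.0458 by limma). It was lower in all 4 runs, by -0.17, -0.18, -0.17 and -0.10, and in each run both knock-down libraries lay below both controls. The call was lost in 12 of 16 fits with a library left out, and those fits did not include the run. In them it held only without Ik4056 replicate 1 or 4, Ik2709 replicate 4 or empty-vector replicate 3. With Tubb6, 2 of 7 tested members were called, where 19.4% of the 10744 genes tested were. With the run as a block, 4 were called: Tubb6 and Tubg1 stayed, and Tuba1a (-0.33, adjusted p = 0.000343 by limma) and Tuba4a (-0.20, adjusted p = 0.00502 by limma) joined. Both joining genes were lower in 4 of 4 runs. The 19.4% belongs to the fit without the block. No share of all genes is given for the blocked fit, so the count of 4 has no background here. Tuba1a averaged 54.7 RPKM with the knock-down constructs and 70.1 RPKM with the control constructs, and in run 4 it stood at 26.7 to 30.6 RPKM with every construct. Tuba4a averaged 219.2 RPKM with the knock-down constructs and 249.5 RPKM with the control constructs.

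Ik4056 and Ik2709 were also compared with each other. No member passed the test, where 3.33% of genes did, and none had an unadjusted p under 0.05 by limma, as 11.3% of genes did. Tubb6 averaged 22.3 RPKM with Ik4056 and 31.5 RPKM with Ik2709, and the ranges did not overlap (-0.49 ± 0.25, adjusted p = 0.514 by limma). With the run as a block Tuba4a was called, at 190.2 RPKM with Ik4056 and 248.1 RPKM with Ik2709, and the share of all genes in that blocked fit is not given.

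**Figure D5:**
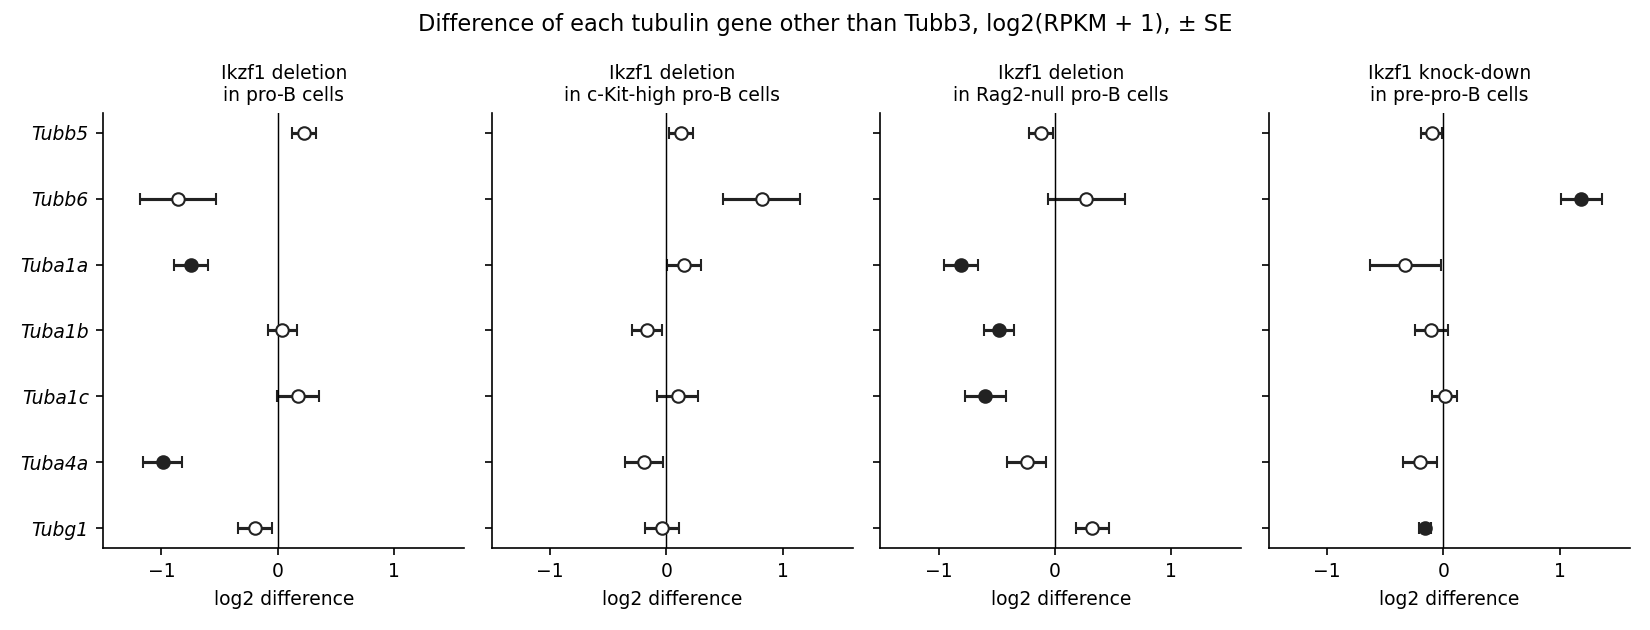
Difference in log2(RPKM + 1) of the 7 tested tubulin genes in the 3 deletions and the knock-down, deleted minus control or knock-down minus control, with bars of 1 SE. Filled points passed the limma test at an adjusted p of 0.05 and open points did not. Tuba1a and Tuba4a in total pro-B cells and Tuba1a, Tuba1b and Tuba1c in Rag2-null cells lie below 0, and Tubb6 in the knock-down lies above it at 1.19.

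The control groups of the stages were also compared, with the limit that stage and the making of the libraries cannot be told apart. In control c-Kit-high cells all 7 tested members were lower than in control total pro-B cells, where 50.8% of genes were called and 23.0% were called lower. Tuba1a differed most of the tested members, at 5.22 and 5.69 RPKM in c-Kit-high cells, against 44.2 and 42.7 RPKM in total pro-B cells (-2.79 ± 0.15, adjusted p = 1.38e-07 by limma). Tubb6 differed by -1.94, Tuba4a by -1.61, Tuba1c by -1.29, Tuba1b by -0.96, Tubb5 by -0.60 and Tubg1 by -0.55. The Tubb5 call was lost with quantile normalization (-0.28), and the Tubg1 call without control pro-B replicate 2 (adjusted p = 0.0533 by limma). In the c-Kit-high controls all 9 neutrophil genes were higher, 9 of 20 mitotic genes were lower and none higher (median -0.36), with 5 lower under quantile normalization, and 4 of 7 endothelial and stromal genes were lower and 2 higher. The part of these in the tubulin differences was not tested.

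In wild-type pre-B cells, against control c-Kit-high cells, which also differ in genotype, 5 members were lower and 1 higher, where 49.0% of genes were called and 29.8% were called lower. Tubb5 read 402.2 and 439.2 RPKM in pre-B cells, against 1288 and 1102 RPKM in control c-Kit-high cells (-1.501 ± 0.103, adjusted p = 2.62e-07 by limma). Tuba1b read 22.8 and 26.0 RPKM in pre-B cells, against 90.2 and 99.96 RPKM in control c-Kit-high cells (-1.92 ± 0.13, adjusted p = 1.89e-07 by limma). Tubg1 read 21.6 and 25.8 RPKM in pre-B cells, against 49.99 and 53.7 RPKM in control c-Kit-high cells (-1.10 ± 0.15, adjusted p = 4.6e-05 by limma). Tuba1a was the exception, at 11.9 and 13.9 RPKM in pre-B cells, against 5.22 and 5.69 RPKM in control c-Kit-high cells (1.10 ± 0.15, adjusted p = 5.07e-05 by limma), a call lost in the fit of all 30 libraries (adjusted p = 0.0835 by limma). Tuba1c (-0.56) and Tuba4a (-0.56) were also called lower, but lost the call without 1 library: Tuba1c without control c-Kit-high replicate 1 or pre-B replicate 2, and Tuba4a without either pre-B library or control c-Kit-high replicate 1. Both lost it with median-ratio scaling, Tuba1c also with quantile normalization and with the compared libraries alone, and Tuba4a in the fit of all 30 libraries. Tubb6 was called higher only without control c-Kit-high replicate 1 (0.81, adjusted p = 0.0446 by limma). All 9 neutrophil genes, all 6 tested monocyte genes and all 6 erythroid genes were higher and all 20 mitotic genes lower in the pre-B libraries, and the part of any of these in the tubulin differences was not tested.

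Rag2-null controls, against Rag2-intact pro-B controls, differed in Tubb5 alone of the 7, at 2659 and 2746 RPKM in Rag2-null controls, against 1836 and 1770 RPKM in Rag2-intact controls (0.58 ± 0.10, adjusted p = 0.00133 by limma). There 31.6% of genes were called. With quantile normalization Tubb5 turned to -0.08, so its direction depends on how the libraries are scaled. Without Rag2-null control replicate 1, Tuba1a was also called.

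Over the 14 pro-B and pre-B libraries the genes most like the other members were, by Pearson r, the lipid-synthesis gene Acly (0.981) and the glycolytic gene Aldoa (0.978) for Tuba1a, the replication-licensing gene Gmnn (0.995), the purine-synthesis gene Paics and the cell-cycle kinase gene Cdk1 (0.990 each) for Tuba1b, and Nol12 (0.980) for Tuba1c. Aldh18a1, of proline synthesis, was most like Tuba4a (0.984), Fkbp5, a chaperone of steroid receptors, most like Tubg1 (0.981), and the nucleoporin-like gene Nupl2 most like Tubb6 (0.941).

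The other genes of the microtubule system came from lists chosen with earlier results known, and support nothing by themselves. For every list the shares of all genes called, 23.4%, 17.2% and 22.3% in the total, c-Kit-high and Rag2-null deletions and 19.4% in the knock-down, are the background. They belong to the main fits, and no such share is given for the counts with the run as a block. Median differences are given below in that order, and over all genes they were 0.032, 0.029, 0.057 and 0.009. Of 12 other tubulin genes, 9 were tested in pro-B cells, with median differences of -0.17, -0.13, -0.36 and -0.12, and Tubb2b, a beta isotype of the nervous system, fell in all 3 deletions. It read 1.47 and 1.52 RPKM in deleted pro-B cells, against 9.83 and 8.02 RPKM in controls (-1.99 ± 0.27, adjusted p = 0.000184 by limma). It read 0.831 and 0.844 RPKM in deleted c-Kit-high cells, against 5.77 and 10.3 RPKM in controls (-2.25 ± 0.27, adjusted p = 9.76e-05 by limma). In Rag2-null cells it read 2.44 and 1.29 RPKM with the deletion, against 24.9 and 15.7 RPKM without it (-2.89 ± 0.27, adjusted p = 1.15e-05 by limma). Unlike Tubb3, Tubb2b was thus present in c-Kit-high controls, and it was highest of the 14 libraries in pre-B cells, at 25.4 and 27.3 RPKM. The calls held in all 13 alternatives of each deletion. Tubb2a, its close relative, was called lower in total pro-B cells (-1.17, adjusted p = 0.0143 by limma) but not without deleted pro-B replicate 1 or control pro-B replicate 2, and Tubb4b in Rag2-null cells (-0.41, adjusted p = 0.0165 by limma), a call lost in 6 of 13 alternatives. In the knock-down none of 7 was called, and with the run as a block 1 was higher and 2 lower.

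Of 21 genes for tubulin folding cofactors and the chaperonin that folds tubulin, 1 was called higher in deleted pro-B cells, 1 higher in c-Kit-high cells, 1 lower in Rag2-null cells and 1 lower in the knock-down, where 9 were lower with the run as a block. With any 1 library left out, 0 to 3 were lower in Rag2-null cells and 0 to 3 in the knock-down. Their median differences were -0.07, -0.16, -0.22 and -0.11. In control c-Kit-high cells, against control total pro-B cells, 15 of the 21 were lower and 3 higher. Of 20 genes of the gamma-tubulin ring complex and of nucleation, 3 were higher in deleted pro-B cells, 1 in c-Kit-high cells and 1 in Rag2-null cells, and 1, the augmin gene Haus4, was lower in the knock-down (-0.20 ± 0.05, adjusted p = 0.0139 by limma), where 6 were lower and 1 higher with the run as a block. The 3 in deleted pro-B cells became 0 to 2 with any 1 library left out and 2 with median-ratio scaling, and the 1 in Rag2-null cells became 0 with either scaling. The medians were 0.05, 0.16, 0.08 and -0.07.

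Among 19 tested genes for microtubule-associated and plus-end proteins, 2, 2 and 4 were called higher in the total, c-Kit-high and Rag2-null deletions and none lower (medians -0.02, 0.11, 0.10 and -0.03). Clip2, which encodes a linker at growing microtubule ends, read 11.9 and 9.79 RPKM in deleted pro-B cells, against 3.87 and 3.86 RPKM in controls (1.28 ± 0.23, adjusted p = 0.00129 by limma). In Rag2-null cells it read 21.3 and 23.4 RPKM with the deletion, against 3.36 and 1.46 RPKM without it (2.83 ± 0.23, adjusted p = 2.96e-06 by limma). Its relative Clip1 was also higher there (0.85 ± 0.16, adjusted p = 0.00215 by limma). In the knock-down, Map7, a kinesin-recruiting protein's gene, was higher (0.56) and Tacc2, of a centrosomal protein, lower (-0.40).

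Of 9 tested genes for stathmins and for severing and depolymerizing proteins, Fignl1, an ATPase related to the microtubule-severing fidgetin, fell in all 3 deletions. With the deletion 1 other gene was higher in total pro-B cells, 1 in c-Kit-high cells and 2 in Rag2-null cells. With any 1 library left out, 0 were higher in total pro-B cells, 0 to 1 in c-Kit-high cells and 0 to 1 in Rag2-null cells, and with quantile normalization 0 in each. In the knock-down 0 were called, and 2 were lower with the run as a block. The list's medians were 0.30, -0.16, 0.07 and -0.07. Fignl1 read 3.34 and 3.81 RPKM in deleted pro-B cells, against 21.7 and 17.96 RPKM in controls (-2.18 ± 0.20, adjusted p = 7.74e-06 by limma). In c-Kit-high cells it differed by -1.14 and in Rag2-null cells by -1.49. Fignl1 is the next protein-coding gene after Ikzf1 on chromosome 11, and whether the altered Ikzf1 alleles act on it in cis was not tested. In knock-down cells it ranged from 11.6 to 17.1 RPKM, against 11.9 to 19.4 RPKM with the control constructs, and was not called.

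Of 16 tested tubulin-modifying enzymes, 3 were higher and 1 lower in deleted pro-B cells, 2 higher in deleted c-Kit-high cells and 1 higher in deleted Rag2-null cells (medians 0.24, 0.18, 0.11 and 0.05). With any 1 library left out, 1 to 2 were higher in c-Kit-high cells and 0 to 2 in Rag2-null cells. In deleted pro-B cells the higher calls were 1 to 2 with any 1 library left out, 1 with quantile normalization and 2 with median-ratio scaling. Vash1, whose product removes the C-terminal tyrosine of alpha-tubulin, read 5.58 and 6.97 RPKM in deleted pro-B cells, against 0.935 and 0.694 RPKM in controls (2.00 ± 0.18, adjusted p = 6.28e-06 by limma). Ttl, whose product puts it back, was higher too (0.52 ± 0.17, adjusted p = 0.0378 by limma), a call that held in 6 of 13 alternatives. Vash1 also read 2.98 and 2.78 RPKM in deleted c-Kit-high cells, against 0.239 and 0.0 RPKM in controls. In Rag2-null cells Vash1 read 1.01 and 1.34 RPKM with the deletion, against 0.287 and 0.385 RPKM without it, and no test is given for these settings. In the knock-down 1 was higher, the deacetylase gene Hdac6 (0.36 ± 0.08, adjusted p = 0.00427 by limma), and 6 were higher with the run as a block. Of 18 tested motor genes, 7 were higher in deleted Rag2-null cells, among them the dynein subunit genes Dync1h1 (0.66 ± 0.12, adjusted p = 0.00171 by limma) and Dync1li2 (0.71 ± 0.14, adjusted p = 0.00256 by limma). That count was 3 with quantile normalization, 4 with median-ratio scaling and 2 to 5 with any 1 of the 4 libraries left out. In the other deletions 1 and 0 were called, and in the knock-down 0, with 3 higher and 3 lower with the run as a block, and the medians were 0.19, 0.04, 0.22 and -0.03.

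Of 20 genes of mitotic division, 1 was called higher with the deletion in total pro-B cells and 0 in c-Kit-high cells, with none lower (medians 0.09, 0.02, -0.11 and -0.06). In the knock-down 0 were called, and 5 were lower with the run as a block. In deleted Rag2-null cells 5 were lower, including the centromere gene Cenpa (-0.65 ± 0.11, adjusted p = 0.000892 by limma), with 2 under quantile normalization, 8 under median-ratio scaling and 1 to 4 with any 1 of the 4 libraries left out. Of 24 actin-cytoskeleton genes, Actn1, of the actin crosslinker alpha-actinin, rose in all 4 comparisons, by 2.01 ± 0.17 with the deletion in total pro-B cells, by 2.35 ± 0.17 in c-Kit-high cells, by 2.79 ± 0.17 with Rag2(-/-), and by 1.44 ± 0.08 with the knock-down constructs (adjusted p = 4.17e-06, 1.49e-06, 3.07e-07 and 2.47e-09 by limma). Coro1a, of the actin regulator coronin, was lower in the 3 deletions (-1.32, -0.77 and -0.85), in Rag2-null cells not with quantile normalization. Of the 24, 1 was higher and 4 lower in total pro-B cells, 1 higher and 2 lower in c-Kit-high cells, and 5 higher and 4 lower in Rag2-null cells. With any 1 library left out, 1 to 3 were lower in total pro-B cells and 1 to 3 in c-Kit-high cells, and 3 to 4 higher and 2 to 3 lower in Rag2-null cells. In the knock-down 3 were higher and 1 lower, and 9 higher and 3 lower with the run as a block.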

How the data were processed

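RPKM of 21025 RefSeq gene models were used as deposited for 30 RNA-seq libraries, and the 18 chromatin libraries of the 48 samples were not analysed here. The authors computed the RPKM, with 1 deposited file per library. The submitters' processing notes name TopHat 1.4.1, HTSeq 0.5.3, DESeq 1.8.3 and build mm9 without their roles, and per the labels' protocols polyA RNA gave strand-specific single-end libraries. Members and gene lists were chosen with earlier results of these data known. The values log2(RPKM + 1) were fitted by limma (version 3.58.1, R 4.3.3), with intensity trend and robust moderation, over genes at 1 RPKM or more in at least 2 libraries. One fit held the 14 pro-B and pre-B libraries (11937 genes, 7 residual degrees of freedom), another the 16 knock-down libraries (10744 genes, 12 residual degrees of freedom). The pseudocount of 1 understates changes of low genes. The script was tested on simulated data. Libraries of a knock-down run deviated together from the means of their constructs (24 pairs, lowest r = 0.52, median 0.775). Between runs the median r was -0.22, but subtracting the construct means itself pushes that value below 0, so it is no baseline. Runs follow consecutive library numbers in the titles, and the run was also fitted as a block. Named list genes were up to 3 called genes each way per deletion or knock-down, by absolute difference, with at least 3 RPKM in the higher group. Alternatives were other pseudocounts, filters, scalings, moderation and libraries, each library left out, and, added after the data were seen, run 4 left out. Depth was recovered from the spacing of low values and limits genes near 0. One result under the rule for genes most like a member is not reported here.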

Additional observations from a re-analysis of the deposited data

Results flagged for a closer look

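The effect of Ikzf1 deletion on Tuba1a differed between settings: it was 0.89 ± 0.21 log2 units higher in c-Kit-high than in total pro-B cells (adjusted p = 0.0231 by limma's interaction test), where Tuba1a differed by 0.15 and -0.74. The call was lost in 5 of 8 fits with a library left out (adjusted p up to 0.0929 by limma) and in the fit of all 30 libraries (0.615). Its level in c-Kit-high libraries was 5.22 to 6.56 RPKM, deleted and control together. No library stood apart from the other 3 of its construct for any member by Dixon's test in the 32 groups of 4 knock-down libraries tried.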

How the results depend on the processing

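The count of called members out of 7 changed in 16 of 26 alternatives for the knock-down, 7 of 13 for the Rag2-null deletion and for pre-B cells, 5 of 13 for the deletion in total pro-B cells and 1 of 13 for that in c-Kit-high cells. In total pro-B cells the count was 2, with 1 in the fit of all 30 libraries, 4 with the compared libraries alone and 2 to 3 with a library left out. In Rag2-null cells it was 3, with 1 under quantile normalization and in the fit of all 30 libraries, and 1 to 3 with a library left out. In the knock-down it was 2, with 1 under quantile normalization, plain limma moderation and the fit of all 30 libraries, 4 with the run as a block, 2 without run 4, and 1 to 2 with a library left out. Leave-one-out counts were 0 to 1 for the c-Kit-high deletion, 4 to 6 for pre-B cells, 6 to 7 for c-Kit-high against total pro-B cells, 1 to 2 for Rag2-null against Rag2-intact cells (0 under quantile normalization), 0 to 1 for the Rag2 difference in deletion effect (1 with a pseudocount of 5, under quantile normalization and in the fit of all 30 libraries) and 0 to 2 for the c-Kit-high one (2 with a pseudocount of 5). Between Ik4056 and Ik2709 it was 1 with the run as a block. The block changed no other call of a member.

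These differences of members changed sign. With median-ratio scaling Tuba1b became -0.05 in deleted pro-B cells and 0.11 in Rag2-null against Rag2-intact cells, and Tuba1c -0.04 in the knock-down. With quantile normalization Tubb5 became 0.20 and Tubb6 -0.02 in deleted Rag2-null cells, Tuba1c -0.01 in the knock-down, and Tuba4a -0.24 and Tubb5 -0.08 in Rag2-null against Rag2-intact cells. With a library left out, Tuba1b ran from -0.01 to 0.08 in deleted pro-B cells, Tuba1c from -0.21 to 0.41 and Tubg1 from -0.11 to 0.03 in c-Kit-high cells, Tuba4a from -0.55 to 0.06 in Rag2-null cells, Tuba1c from -0.05 to 0.06 in the knock-down, Tubb6 from -0.31 to 0.81 in pre-B cells, and Tuba1b from -0.09 to 0.00 and Tuba4a from -0.29 to 0.32 in Rag2-null against Rag2-intact cells. Apart from the alternatives' own construction, the cause was not tested. Tubb3 stayed between -7.67 and -4.90 in pro-B cells, -3.46 and -2.80 in Rag2-null cells and -2.19 and -1.40 in the knock-down.

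Quantile normalization moved the median of all genes from 0.057 to -0.069 in the Rag2-null deletion, and median-ratio scaling from -0.114 to 0.027 in pre-B cells. The share of higher calls moved with quantile normalization and median-ratio scaling from 67.4% to 51.7% and 57.3% in c-Kit-high cells, from 69.4% to 57.9% and 51.1% in Rag2-null cells, and from 68.9% to 52.5% and 59.4% in the knock-down. It moved from 39.1% to 50.4% and 52.6% in pre-B cells, from 34.4% to 45% and 52.6% in Rag2-null against Rag2-intact cells, and from 78.8% to 62.6% between Ik4056 and Ik2709 under quantile normalization. Each member had 1 gene model, so no other model could be tried. With 2 libraries a group, a fit without 1 assumes that the lone library varies like the rest. Depth limits Tubb3 in c-Kit-high and pre-B cells, where it lay below 1 RPKM.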

Other observations

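Tuba8, an alpha-tubulin gene that is no member, was singled out after its values were seen and is given with no test. It averaged 17.5 ± 3.65 RPKM with Ik4056 and 42.8 ± 9.45 RPKM with Ik2709, against 38.2 ± 8.63 RPKM with Ren713 and 36.5 ± 22.5 RPKM with the empty vector (SD, n = 4 each). The ranges of Ik4056 and Ik2709 did not overlap, and that of Ik2709 lay among the controls. In total and Rag2-null pro-B cells Tuba8 stayed below 0.5 RPKM.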
